A study of Mus musculus with 6 samples.

Results

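Vascular smooth muscle genes were examined in ribosome-bound RNA of mouse brain after loss of ankyrin G. The set is 10 genes of 24411 in the count table, chosen by name: Acta2, Tagln, Myh11, Cnn1, Des, Casq2, Mylk, Lmod1, Tbx2 and Tbxa2r. They were proposed with results of these libraries in view, both for the pull-down and for the genotypes. Their differences are therefore given as descriptions, with no p-value. Where members past edgeR's threshold are counted, the share of all genes past it stands beside the count, and such counts support nothing, since the choice of members used these contrasts. P-values are printed only for other genes. Their lists were also chosen with earlier results of these data known, and many of them are named as the largest rises or falls. Those p-values are therefore descriptive too.

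The mutant mice were AnkG icKO RiboTag animals, NG2CreERTM; Ank3F/F; Rpl22HA/+, and the control mice were control RiboTag animals, NG2CreERTM; Rpl22HA/+. Both genotypes therefore carried the tamoxifen-dependent Cre, driven by NG2 regulatory sequence, and 1 HA-tagged Rpl22 allele, a ribosomal protein that puts the tag on ribosomes of cells where Cre has acted. All mice were given tamoxifen at 8 weeks of age, 100 mg/kg daily for 5 days, and were analysed 1 month later. Each library was made from whole brains of 3 pooled mice. HA immunoprecipitates (IP) gave 2 icKO and 2 control libraries, and the homogenate before the pull-down (input) gave 1 icKO and 1 control library. The titles call the IP libraries of a group biological replicates and do not say how the mice were divided among the pools. The p-values therefore measure the spread between these libraries, which edgeR largely shares over all genes. Between the IPs the shared part had 29.7 degrees of freedom, against 2 from each gene itself.

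Vascular smooth muscle cells wrap arteries and arterioles and set vessel width. Calcium entering the cytoplasm activates myosin light chain kinase, which lets smooth muscle myosin pull on alpha-actin filaments. Pericytes sit on capillaries, and both of these mural cell types make NG2 (gene Cspg4), as do oligodendrocyte precursors. The labels call every library, inputs included, oligodendrocytes. In bulk libraries, fewer cells of a type, less RNA per cell and fewer tagged cells cannot be told apart.

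The libraries held 18968806 to 23930812 counts in genes, at which 3 counts correspond to 0.125 to 0.158 CPM (gene counts scaled to a common library size). CPM here are scaled with TMM, which sets libraries to one another by the bulk of the genes. Ank3, the targeted gene, was at 1163 and 1165 CPM in the icKO IPs against 1386 and 1357 CPM in the control IPs, and at 347 CPM in the icKO input against 382 CPM in the control input. These counts cover the whole gene and do not isolate the deleted exons. Cspg4 was at 934 and 970 CPM in the icKO IPs against 893 and 905 CPM in the control IPs, with 22.9 CPM in the icKO input and 21.8 CPM in the control input. An icKO IP library, replicate 1, is titled cKO but carries the icKO genotype label.

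Promoter sequence was at hand for 7 of the 10 genes, in RefSeq windows of build GRCm38.p6, and was searched over the 250 bases before the start of the RefSeq transcript. That start can differ from the outer bounds of the gene in GENCODE M21, which are the gene coordinates given below: the Acta2 window lies mostly inside those bounds and the Mylk window wholly inside them. Serum response factor binds the CArG box, and TEAD factors bind the MCAT element, both known from smooth muscle promoters. None of the 7 genes held an exact CArG box, which 1.47% of 32851 promoter windows held. Allowing at most 1 mismatch, Acta2, Lmod1 and Casq2 held one, 3 of 7 genes, against 18.6% of all windows. GGAATG, the core of the MCAT element read on either strand, was found in Acta2, Lmod1 and Mylk, 3 of 7 genes, against 12.6% of windows. The CArG-like stretches began 84 and 34 bases before the RefSeq start in Acta2, 189 and 164 bases before it in Lmod1, and 43 and 42 bases before it in Casq2, where they overlap. The windows are chr19:34255374-34255623 on the minus strand for Acta2, chr1:135324563-135324812 on the plus strand for Lmod1 and chr3:102086165-102086414 on the plus strand for Casq2. They are shown because they hold the CArG-like stretches, and capitals mark those and GGAATG. A match is a description of letters, not evidence of binding.
Acta2: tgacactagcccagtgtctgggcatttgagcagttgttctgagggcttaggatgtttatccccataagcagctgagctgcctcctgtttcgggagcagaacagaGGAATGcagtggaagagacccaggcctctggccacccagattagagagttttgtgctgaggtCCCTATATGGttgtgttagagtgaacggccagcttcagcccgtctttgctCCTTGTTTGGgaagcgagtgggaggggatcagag
Lmod1: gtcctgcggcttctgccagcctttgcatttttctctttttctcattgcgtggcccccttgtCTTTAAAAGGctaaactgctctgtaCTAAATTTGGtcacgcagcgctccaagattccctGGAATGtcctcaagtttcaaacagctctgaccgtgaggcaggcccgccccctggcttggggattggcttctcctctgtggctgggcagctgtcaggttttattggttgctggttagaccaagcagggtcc
Casq2: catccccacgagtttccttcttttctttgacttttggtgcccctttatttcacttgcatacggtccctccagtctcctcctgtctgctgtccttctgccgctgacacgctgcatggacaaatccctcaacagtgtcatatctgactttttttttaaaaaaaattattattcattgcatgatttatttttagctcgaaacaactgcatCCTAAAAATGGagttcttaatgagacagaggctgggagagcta

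The 10 genes were highest in the control IPs. In icKO mice 9 of 10 genes had both IPs above the input, as did 46.8% of 15936 genes tested, and in control mice 10 of 10, against 46.3% of genes tested. Their summed level was 118 and 110 CPM in the icKO IPs against 211 and 224 CPM in the control IPs. In the inputs the sum was 26.1 CPM for icKO mice and 29.0 CPM for control mice. For each of the 10 genes both icKO IPs lay below both control IPs, an arrangement seen for 36.7% of the 15069 genes tested. The plot of levels by library shows the gap between the IP colours, which is wider than the gap between the inputs for every gene but Cnn1.

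**Figure D1:**
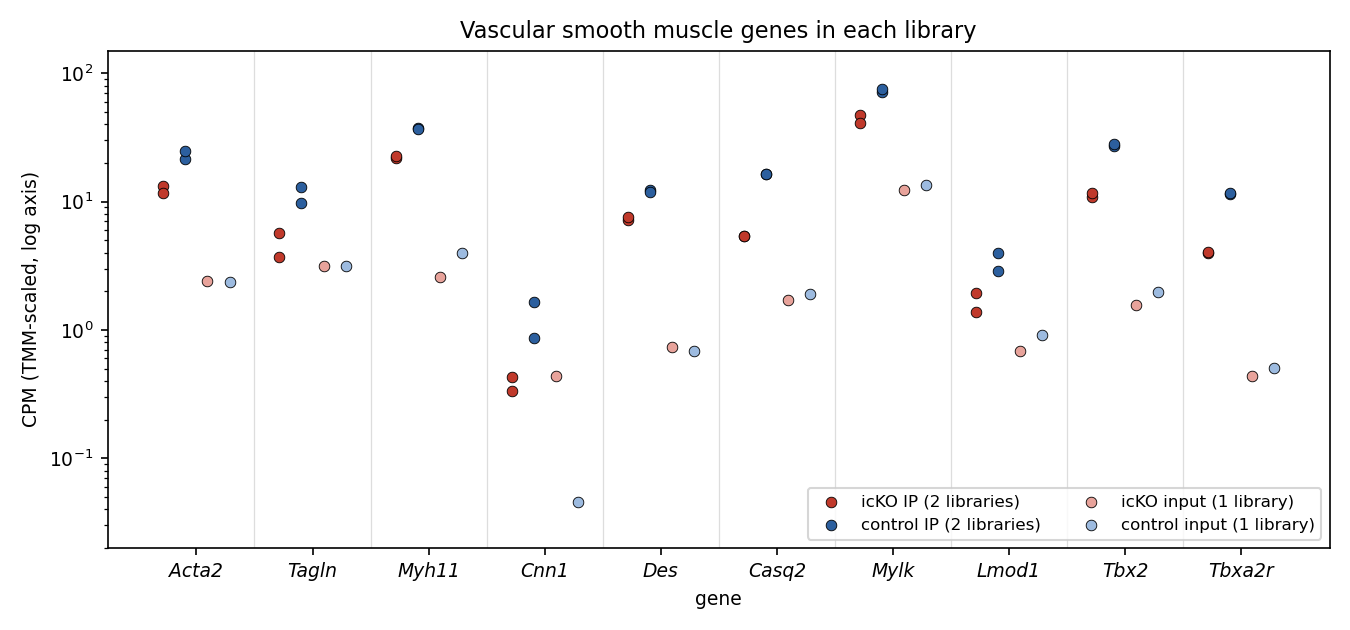
Level of each of the 10 genes in CPM (TMM-scaled, log axis), 1 point per library, for the icKO IPs, control IPs, icKO input and control input. In all 10 genes both icKO IP points lie below both control IP points, and Cnn1 has the lowest values, 0.0456 CPM in the control input.

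Acta2 encodes smooth muscle alpha-actin, the thin filament protein, and lies at chr19:34241090-34255590 on the minus strand (mm10). It was at 13.1 and 11.7 CPM in the icKO IPs against 21.5 and 24.9 CPM in the control IPs, with 2.38 CPM in the icKO input and 2.37 CPM in the control input. The IP groups did not overlap, and the inputs were nearly equal. The log2 difference of icKO IP to control IP was -0.90 ± 0.11 (SE of the fit, n = 2 each, as for all log2 differences between the IPs below). Reads of the conserved actin coding sequence could be split between actin genes, and the handling of multi-mapping reads is not given in the sources used here.

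Myh11, the smooth muscle myosin heavy chain (chr16:14194535-14291372, minus strand), was at 22.0 and 22.8 CPM in the icKO IPs against 37.4 and 36.6 CPM in the control IPs, a log2 difference of -0.72 ± 0.08. Its inputs were at 2.58 CPM (icKO) and 4.01 CPM (control). Mylk, the light chain kinase that activates that myosin (chr16:34745210-35002420, plus strand), was the most abundant of the 10 genes in CPM. It was at 47.4 and 41.0 CPM in the icKO IPs against 71.4 and 75.8 CPM in the control IPs, with 12.4 CPM in the icKO input and 13.5 CPM in the control input. Its log2 difference, -0.73 ± 0.06, lay close to those of Myh11 and of Des. Des, desmin, the intermediate filament protein of muscle (chr1:75360329-75368579, plus strand), was at 7.18 and 7.61 CPM in the icKO IPs against 12.2 and 12.0 CPM in the control IPs, a log2 difference of -0.71 ± 0.14. Its inputs were at 0.730 CPM (icKO) and 0.683 CPM (control). Exons of Des and of Mylk overlap antisense genes, which had only 3 counts (Gm15179) and 9 counts (E130310I04Rik) over the 6 libraries. Mylk also overlaps the antisense gene Gm21691, by 188 bases, which is not in the count table. Myh11, Mylk and Des were the members with the smallest genotype differences.

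Tagln, transgelin or SM22, an actin-binding protein of smooth muscle (chr9:45929619-45936058, minus strand), was at 5.74 and 3.70 CPM in the icKO IPs against 9.76 and 13 CPM in the control IPs, a log2 difference of -1.27 ± 0.18. Its inputs, at 3.16 CPM (icKO) and 3.14 CPM (control), were high beside its IP levels. The icKO IP replicate 2 lay near the inputs. Exons of Tagln and of Pcsk7, on the opposite strand, share 108 bases in GENCODE M21, and Pcsk7 had 4349 counts over the 6 libraries. A longer overlap, of 645 bases, is with the antisense gene Gm48529, which is not in the count table. The library kit keeps strand, but how strand was set in the counting is not stated in these sources, and the Tagln counts are uncertain.

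Cnn1, calponin, which binds actin and restrains myosin (chr9:22099216-22109630, plus strand), was the least abundant member. It had 8 and 6 counts in the icKO IPs against 18 and 40 counts in the control IPs, with 9 counts in the icKO input and 1 count in the control input. Its log2 difference between the IPs, -1.72 ± 0.53, was the lowest of the 10 and had the widest error. Lmod1, leiomodin, which nucleates actin filaments (chr1:135324807-135368065, plus strand), was at 1.93 and 1.38 CPM in the icKO IPs against 2.86 and 3.96 CPM in the control IPs, a log2 difference of -1.04 ± 0.29, with 0.681 CPM in the icKO input and 0.911 CPM in the control input. These are the members with the fewest counts. Without control IP replicate 2 the difference was -1.16 for Cnn1 and -0.79 for Lmod1, and neither then passed the threshold of edgeR's test (Benjamini-Hochberg adjusted p under 0.05). Without icKO IP replicate 2, Cnn1 was at -1.55 and did not pass it.

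Casq2, calsequestrin, which holds calcium in the sarcoplasmic reticulum (chr3:102086415-102146514, plus strand), was at 5.41 and 5.41 CPM in the icKO IPs against 16.3 and 16.5 CPM in the control IPs. Its inputs were at 1.70 CPM (icKO) and 1.91 CPM (control). The log2 difference of -1.60 ± 0.14 corresponds to a 3.03-fold lower level in the icKO IPs, and the replicates of each group were almost equal. Tbxa2r, the thromboxane A2 receptor, through which thromboxane constricts vessels (chr10:81328731-81335172, plus strand), was at 3.97 and 4.03 CPM in the icKO IPs against 11.4 and 11.6 CPM in the control IPs, a log2 difference of -1.52 ± 0.16, with 0.438 CPM in the icKO input and 0.501 CPM in the control input. Its fold was close to that of Casq2. Tbx2, a T-box transcriptional repressor (chr11:85832551-85841948, plus strand), was at 10.8 and 11.6 CPM in the icKO IPs against 27.2 and 28.1 CPM in the control IPs, a log2 difference of -1.31 ± 0.10, with 1.56 CPM in the icKO input and 1.96 CPM in the control input. The calcium store protein, the receptor and the transcription factor thus lay lower than the myosin, its kinase and desmin. So did Cnn1 (-1.72), Tagln (-1.27), Lmod1 (-1.04) and Acta2 (-0.90), and the members did not divide by function.

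**Figure D2:**
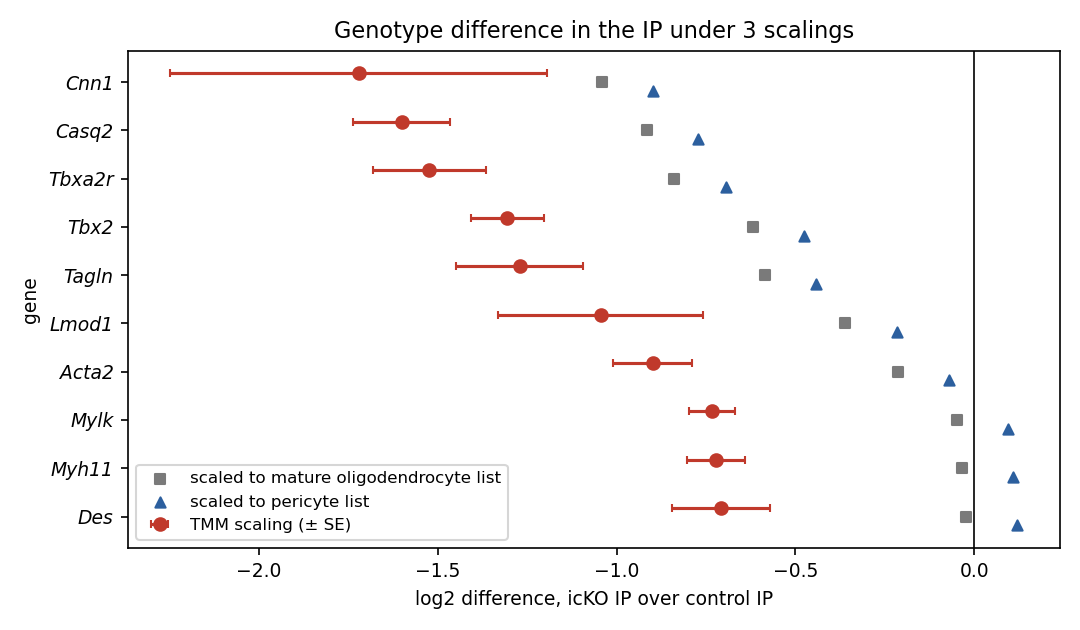
Log2 difference of icKO IP over control IP for each gene under TMM scaling (with SE) and with the libraries scaled to the mature oligodendrocyte or the pericyte list. Under TMM the values run between -1.72 (Cnn1) and -0.71 (Des); scaled to the pericyte list, Des, Myh11 and Mylk lie just above 0, at 0.12, 0.11 and 0.09.

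Over the 10 genes the median log2 difference of icKO IP to control IP was -1.16, a 2.23-fold lower level, beside a median of 0.0033 over all 15069 genes tested. All 10 passed edgeR's threshold in the lower direction, as did 25.2% of genes tested, and 6 of 10 were lower by more than 2-fold, against 0.73% of genes tested. The choice of members used this contrast, so these shares describe the set and support nothing further. The genotype difference depends on what the libraries are scaled to. Scaling to the summed counts of the mature oligodendrocyte list moved the median of all genes to 0.69 and that of the 10 genes to -0.47. Scaling to the pericyte list moved them to 0.83 and -0.33. Under either list scaling Acta2, Myh11, Cnn1, Des, Mylk and Lmod1 no longer passed the threshold, whereas Tagln, Casq2, Tbx2 and Tbxa2r still did. A change of scaling shifts all genes nearly alike. The distance of the 10 genes from the median of all genes therefore stayed the same by construction, and is no check of the difference.

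Ratios between members within a library do not depend on scaling. Per 100 counts of Acta2, Casq2 had 41.2 and 46.0 counts in the icKO IPs against 75.9 and 66.5 counts in control IPs, and 71.4 in the icKO input against 80.8 in the control input. Tbxa2r had 30.2 and 34.3 counts per 100 of Acta2 in icKO IPs against 53.1 and 46.6 in control IPs. Tbx2 had 82.0 and 98.6 in icKO IPs against 126 and 113 in control IPs. Tagln had 43.7 and 31.5 in icKO IPs against 45.4 and 52.2 in control IPs, and Cnn1 3.27 and 2.82 in icKO IPs against 3.98 and 6.63 in control IPs. For these 5 of 9 genes both icKO ratios lay below both control ratios, an arrangement of 0.451% of the 15068 other genes tested. Mylk lay the other way, with 361 and 349 in icKO IPs against 332 and 305 in control IPs, as did 93.9% of genes tested. Myh11, at 167 and 194 in icKO IPs against 174 and 147 in control IPs, and Des, at 54.7 and 64.8 in icKO IPs against 56.9 and 48.1 in control IPs, overlapped, as did Lmod1, at 14.7 and 11.7 in icKO IPs against 13.3 and 15.9 in control IPs. Acta2 was taken as the base after its values were seen, and the shares describe the set only.

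Per kilobase of merged exon, the order of the members differed between the IP groups. In the icKO IPs the mean was highest for Acta2 (5.67 CPM per kb), then Mylk (3.92), Tbx2 (3.08), Myh11 (2.95), Tagln (2.37), Tbxa2r (2.08), Casq2 (1.98), Des (1.97), Lmod1 (0.419) and Cnn1 (0.139). In the control IPs it was Acta2 (10.6 CPM per kb), Tbx2 (7.62), Mylk (6.53), Casq2 (6.01), Tbxa2r (6), Tagln (5.72), Myh11 (4.87), Des (3.22), Lmod1 (0.864) and Cnn1 (0.458). Neighbours whose replicates overlapped, and so are not separated by this order, were Tbx2 and Myh11, and Casq2 and Des, in the icKO IPs, and Casq2 and Tbxa2r, Tagln and each of Mylk, Casq2 and Tbxa2r, and Tagln and Myh11 in the control IPs. In the icKO IPs the replicates of Tagln, 2.88 and 1.86 CPM per kb, spanned the values of Tbxa2r and Casq2. In the inputs Tagln led, at 1.59 CPM per kb (icKO) and 1.58 CPM per kb (control).

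The inputs gave no counterpart to the genotype difference that could be resolved for most members. The median log2 difference of icKO input to control input was -0.14, with 6 members lower in the icKO input. For 8 of 10 genes the exact 95% interval of the ratio, which covers counting error only, spanned 1. Myh11 had 53 counts in the icKO input against 88 in the control input, a ratio of 0.643 (0.449 to 0.915). Cnn1 had 9 counts in the icKO input against 1 in the control input, a ratio of 9.61 (1.33 to 421). The intervals of Tbxa2r (0.320 to 2.32), Lmod1 (0.349 to 1.56), Des (0.487 to 2.34) and Myh11 also held the ratio between the IPs. That ratio was 0.348, 0.485, 0.612 and 0.607 in that order. For Tbxa2r, Lmod1 and Des the inputs thus cannot tell an equal difference from none. For the other members the interval lay above the ratio between the IPs. Each genotype had 1 input, so the input ratios have no replicate check.

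Within each genotype the IP stood above its input for most members. In icKO mice the median log2 difference of IP to input was 2.11, a 4.31-fold higher level, and 8 of 10 genes passed edgeR's threshold as higher, against 34.7% of the 15936 genes tested. In control mice the median was 3.25, a 9.54-fold higher level, and 10 of 10 passed, against 34.4% of genes tested. Each of these comparisons has 1 input library, whose spread is taken from the IP pairs, and the choice of members used the pull-down, so nothing is read from these shares. The exceptions in icKO mice were Tagln, at 0.58 ± 0.28 against 1.87 ± 0.25 in control mice, and Cnn1, at -0.20 ± 0.84 against 4.63 ± 1.10 in control mice. After Cnn1, Tbxa2r showed the largest difference in control mice, 3.17 ± 0.39 in icKO mice against 4.51 ± 0.32 in control mice, with 9 counts in the icKO input and 11 in the control input. Des was at 3.33 ± 0.31 in icKO mice against 4.14 ± 0.29 in control mice. Scaled to the mature oligodendrocyte list, which itself was far above the inputs, the median log2 difference of IP to input over the 10 genes was -0.08, and scaled to the pericyte list it was -0.57, while the median of all genes moved to -2.70 and -3.20. The IP to input differences of the lists described below shift by about these amounts, so the smaller rises turn negative.

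**Figure D3:**
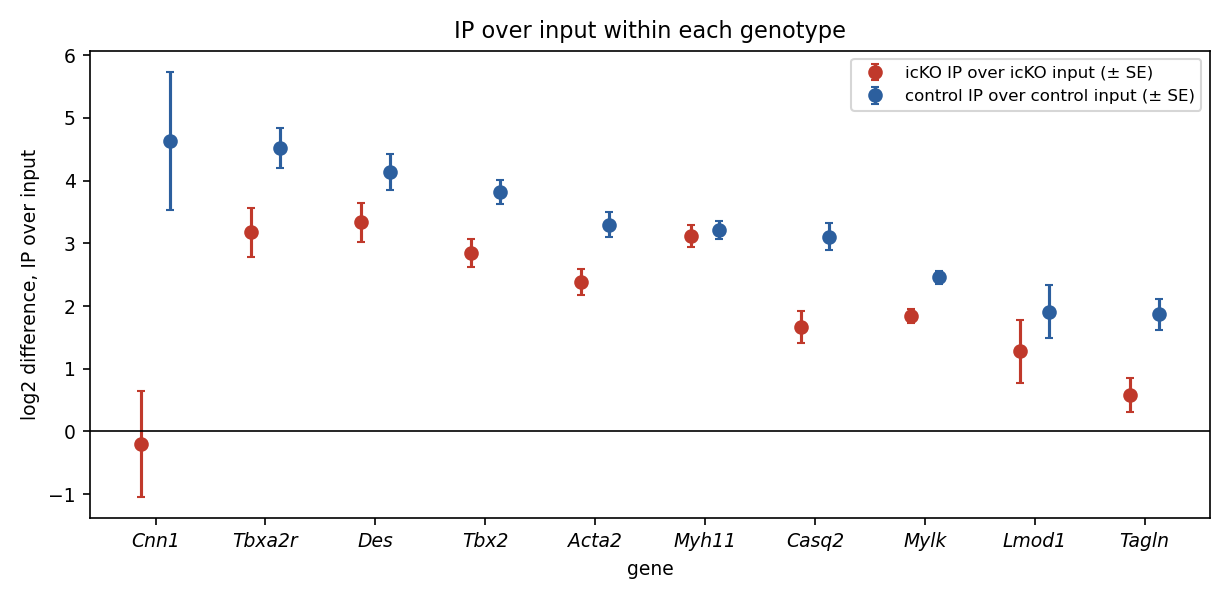
Log2 difference of IP over input within icKO mice and within control mice for each gene, with the SE of the fit to 6 libraries, ordered by the control value. The icKO point lies below the control point for each gene, nearly level for Myh11 (3.12 and 3.21) and farthest apart for Cnn1 (-0.20 and 4.63).

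Taking IP and input in 1 fit across both genotypes, the median log2 difference of IP to input was 2.68, and 9 of 10 genes passed the threshold as higher, against 34.8% of 15451 genes tested. Cnn1, at 1.66 ± 0.85, did not. Without the control input Tagln, at 0.58, no longer passed and Cnn1 turned to -0.20, and without the icKO input Cnn1 was at 4.63 and passed. The genotype difference of IP over input lay past the threshold as lower in icKO mice for 5 of 10 genes, against 13.9% of genes tested. With 1 input per genotype and members chosen from these contrasts, nothing is read from these counts. In the control mice the ratio of Cnn1 counts in IP to input was 28.1, with an exact 95% interval of 4.86 to 1130 that rests on the 1 input count.

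Close relatives of the members did not share 1 direction. Of 16 paralogs tested, 3 rose and 8 fell in the icKO IPs relative to the control IPs (median log2 -0.41). Of all 15069 genes tested between the IPs, 3326 rose and 3793 (25.2%) fell. Relative to input, 5382 (34.8%) of 15451 genes rose in the IP and 5429 fell. The counts of this and every later list are to be read beside these shares, and nothing is read from counts near them. The nonmuscle myosin heavy chains Myh10, at 1.27, Myh9, at 0.89, and Myh14, at 0.68, rose (edgeR adjusted p = 2.75e-31, 8.91e-26 and 2.26e-18), whereas Myh11 lay lower. Myh9 was at 1457 and 1464 CPM in the icKO IPs against 786 and 792 CPM in the control IPs. The calponin Cnn2 fell by 1.21 on the log2 scale (edgeR adjusted p = 1.05e-09), to 9.54 and 8.11 CPM in the icKO IPs, against 22.3 and 18.6 CPM in the control IPs. Relative to input, 11 of the 16 rose in the IP and 4 fell. Tagln2 fell by 0.61 (edgeR adjusted p = 4.15e-08), but reached 0.07 and 0.22 with the libraries scaled to the mature oligodendrocyte and pericyte lists. Tbx3 fell by 0.56 (edgeR adjusted p = 0.00102), but was at 0.12 and 0.26 under these scalings. Actb, cytoplasmic beta-actin, averaged 690 CPM per kb in the icKO IPs against 979 CPM per kb in the control IPs, far above Acta2 in both.

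Other genes of the contractile apparatus went both ways. Of 25 tested, 8 rose and 12 fell in the icKO IPs, with a median log2 difference of -0.0021. Myl9, the regulatory light chain that Mylk phosphorylates, fell by 1.02, to 31.4 and 29.8 CPM in the icKO IPs, against 61.5 and 62.8 CPM in the control IPs (edgeR adjusted p = 1.89e-14). Ppp1r14a, the inhibitor of myosin phosphatase known as CPI-17, fell by 1.02 (edgeR adjusted p = 2.55e-16), and Csrp1, a LIM-domain protein, fell by 0.94 (edgeR adjusted p = 4.63e-23). Actn1, an actin cross-linker, rose by 1.19 (edgeR adjusted p = 1.18e-26), to 567 and 564 CPM in the icKO IPs, against 245 and 250 CPM in the control IPs. In the icKO and control inputs Actn1 was at 138 and 133 CPM and Csrp1 at 214 and 200 CPM. Myl9 was at 3.89 and 5.97 CPM there, and Acta2 at 2.38 and 2.37 CPM. Which cells the reads of this list came from was not tested, so its mixed directions need not lie within smooth muscle. Synpo2, an actin-binding protein, rose by 0.46 (edgeR adjusted p = 0.0343). The Synpo2 call was lost without control IP replicate 2 (0.37) or icKO IP replicate 1 (0.23), and also with DESeq2 (0.46), library totals (0.37) or a transcript length offset (0.29), which removes each library's trend with length and was chosen after seeing the data. Relative to input, 17 of 25 rose and 6 fell in the IP, with Myl9 at 3.20 (edgeR adjusted p = 1.72e-08), Cald1 (caldesmon) at 2.83 (edgeR adjusted p = 5.27e-08) and Smtn (smoothelin) at 1.92 (edgeR adjusted p = 4.71e-07).

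Of 13 transcription regulators of smooth muscle tested, 2 rose and 8 fell in the icKO IPs (median -0.45). Notch3, the receptor through which mural cells read endothelial Notch ligands, was at 144 and 145 CPM in the icKO IPs against 241 and 249 CPM in the control IPs. It fell by 0.76 (edgeR adjusted p = 2.22e-18), Foxf2 by 0.69 (edgeR adjusted p = 0.000162) and Foxc1 by 0.68 (edgeR adjusted p = 8.42e-07). Scaled to the pericyte list these 3 genes were at 0.07, 0.14 and 0.15. Mkl2, a myocardin-related coactivator of serum response factor, rose by 0.27 (edgeR adjusted p = 9.49e-09), and Mef2c by 0.15 (edgeR adjusted p = 0.0025). Without control IP replicate 2, Mef2c (0.12) did not pass and 1 gene rose, and scaled to library totals Mef2c (0.060) did not pass. Relative to input, 9 of 13 rose in the IP and 4 fell. Foxs1 was at 3.80 (edgeR adjusted p = 2.96e-05), Notch3 at 3.77 (edgeR adjusted p = 5.80e-08) and Tbx3 at 2.46 (edgeR adjusted p = 4.85e-06), while Mkl2, at -0.79, and Mef2c, at -1.65, were lower (edgeR adjusted p = 1.28e-05 and 2.79e-08). In the icKO and control inputs Mkl2 was at 493 and 511 CPM and Mef2c at 447 and 460 CPM, against 14.2 and 13.3 CPM for Notch3. Which cells the reads of Mkl2 and Mef2c came from was not tested.

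Among 19 calcium channels and vasoactive receptors tested, 5 rose and 7 fell in the icKO IPs (median -0.17). Kcnmb1, the smooth muscle subunit of the calcium-activated potassium channel, fell by 1.47, to 2.95 and 1.65 CPM in the icKO IPs, against 6.53 and 6.31 CPM in the control IPs (edgeR adjusted p = 2.11e-06). Ednra, the endothelin A receptor, fell by 0.81 (edgeR adjusted p = 5.59e-07), but was at 0.02 when scaled to the pericyte list. Pde5a, the phosphodiesterase that degrades cyclic GMP, fell by 0.59 (edgeR adjusted p = 2.18e-06), but reached 0.10 and 0.24 under the mature oligodendrocyte and pericyte scalings. The ryanodine receptors Ryr3 and Ryr2, which release stored calcium in neurons as well as muscle, rose by 0.89 and 0.56 (edgeR adjusted p = 5.53e-22 and 1.70e-18). Cacna1c, the L-type channel subunit, rose by 0.37 (edgeR adjusted p = 6.27e-10). Relative to input, 8 of 21 rose in the IP and 9 fell. Kcnmb1 (2.46), Ednra (2.36) and the endothelin B receptor Ednrb (2.04) were higher (edgeR adjusted p = 7.54e-05, 7.45e-07 and 3.54e-08), and the adrenergic receptors Adra1d (-2.16) and Adra2a (-1.62) were lower (edgeR adjusted p = 5.09e-07 and 5.74e-06).

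A list of arterial smooth muscle markers did not move as a block. Of 12 tested, 5 fell and 0 rose, with a median of -0.12. Gja4, connexin 37, fell by 1.12, to 6.75 and 5.63 CPM in the icKO IPs, against 12.6 and 14.4 CPM in the control IPs (edgeR adjusted p = 7.74e-08). Crispld2 fell by 1.02 (edgeR adjusted p = 0.00689) and Wtip by 0.56 (edgeR adjusted p = 0.015). Wtip reached 0.13 and 0.27 under the mature oligodendrocyte and pericyte scalings. Without control IP replicate 2 neither Crispld2 (-0.78) nor Wtip (-0.49) passed, and without icKO IP replicate 2 Wtip (-0.52) did not pass. With DESeq2 neither Crispld2 (-1.01) nor Wtip (-0.55) passed. Itga8, integrin alpha 8, a marker of contractile smooth muscle, was at 16.8 and 18.4 CPM in the icKO IPs against 16.6 and 18 CPM in the control IPs, a log2 difference of 0.02 (edgeR adjusted p = 0.887). The count of falls was 1 with control IP replicate 2 left out, 2 with icKO IP replicate 2 left out, 3 with control IP replicate 1 left out and 4 with icKO IP replicate 1 left out. Relative to input, 6 of 12 rose in the IP and 4 fell. Susd5 (3.71), Gja4 (3.01) and Itga8 (1.49) were higher (edgeR adjusted p = 6.91e-09, 5.23e-06 and 9.31e-06), and Pcp4l1 (-2.75), Sncg (-2.64) and Npnt (-1.76) were lower (edgeR adjusted p = 3.47e-09, 1.64e-05 and 6.32e-07).

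Most genes of the pericyte, mature oligodendrocyte and precursor lists were also lower in the icKO IPs, unlike the endothelial, fibroblast and striated muscle lists given below. Of 16 pericyte genes 15 fell in the icKO IPs and 0 rose (median -0.89). Ndufa4l2 fell by 1.64 (edgeR adjusted p = 5.39e-12), Higd1b by 1.56 (edgeR adjusted p = 3.16e-10) and Kcnj8, a potassium channel subunit of pericytes, by 1.29 (edgeR adjusted p = 6.25e-15). Their summed level was 1149 and 1163 CPM in the icKO IPs against 2047 and 2065 CPM in the control IPs, with 173 CPM in the icKO input and 166 CPM in the control input. All 11 mature oligodendrocyte genes fell (median -0.76), with summed levels of 11934 and 11860 CPM in the icKO IPs against 19104 and 19209 CPM in the control IPs. Of 12 precursor genes 10 fell and 1 rose (median -0.26), with sums of 8190 and 8272 CPM in the icKO IPs against 9478 and 9588 CPM in the control IPs. Without icKO IP replicate 2 no precursor gene rose. Relative to input, 15 of 16 pericyte, 11 of 11 mature oligodendrocyte and 12 of 12 precursor genes were higher in the IP, with the pericyte genes Abcc9 and P2ry14 both at 4.29 (edgeR adjusted p = 4.06e-09 and 6.77e-08) and Kcnj8 at 3.84 (edgeR adjusted p = 3.38e-08). The shifts of 0.69 and 0.83 given above put the medians of the precursor, endothelial, transcription, calcium and receptor, arterial and paralog lists above 0 under both list scalings. They put the mature oligodendrocyte median above 0 under the pericyte scaling, and a list's own sum is equal in all libraries when they are scaled to it. The part of these cell types in the result was not tested.

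Endothelial and fibroblast genes were also counted. Of 18 endothelial genes 2 rose and 3 fell in the icKO IPs (median -0.31), and the rises were lost without control IP replicate 1 or icKO IP replicate 2. Of 11 fibroblast genes 3 rose and 1 fell (median -0.03), with 2 falls without control IP replicate 1. Relative to input, 13 of 18 endothelial and 8 of 12 fibroblast genes were lower in the IP. Their summed levels in the icKO IPs were 103 and 110 CPM for endothelium and 122 and 114 CPM for fibroblasts, against 129 and 129 CPM for endothelium and 103 and 108 CPM for fibroblasts in the control IPs. The inputs differed too. Endothelium summed to 162 CPM in the icKO input against 240 CPM in the control input, and fibroblasts to 167 against 136 CPM. With 1 input per genotype these sums have no replicate check. Casq2 and Des are also genes of striated muscle. Of 20 other striated muscle genes, 14 were at or under 1 CPM in every IP, and Actc1, cardiac actin, had no count in any library. Of 9 striated muscle genes tested between the IPs, 2 rose and 0 fell (median 0.20). Ttn, titin, was at 27.1 and 30.8 CPM in the icKO IPs against 16.7 and 16.6 CPM in the control IPs, a rise of 0.80 (edgeR adjusted p = 1.97e-08), but did not pass with the transcript length offset (0.22). Myh7, the slow myosin heavy chain, was at 13.6 and 15.9 CPM in the icKO IPs against 9.57 and 10.6 CPM in the control IPs, a rise of 0.55 (edgeR adjusted p = 0.000577).

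**Figure D4:**
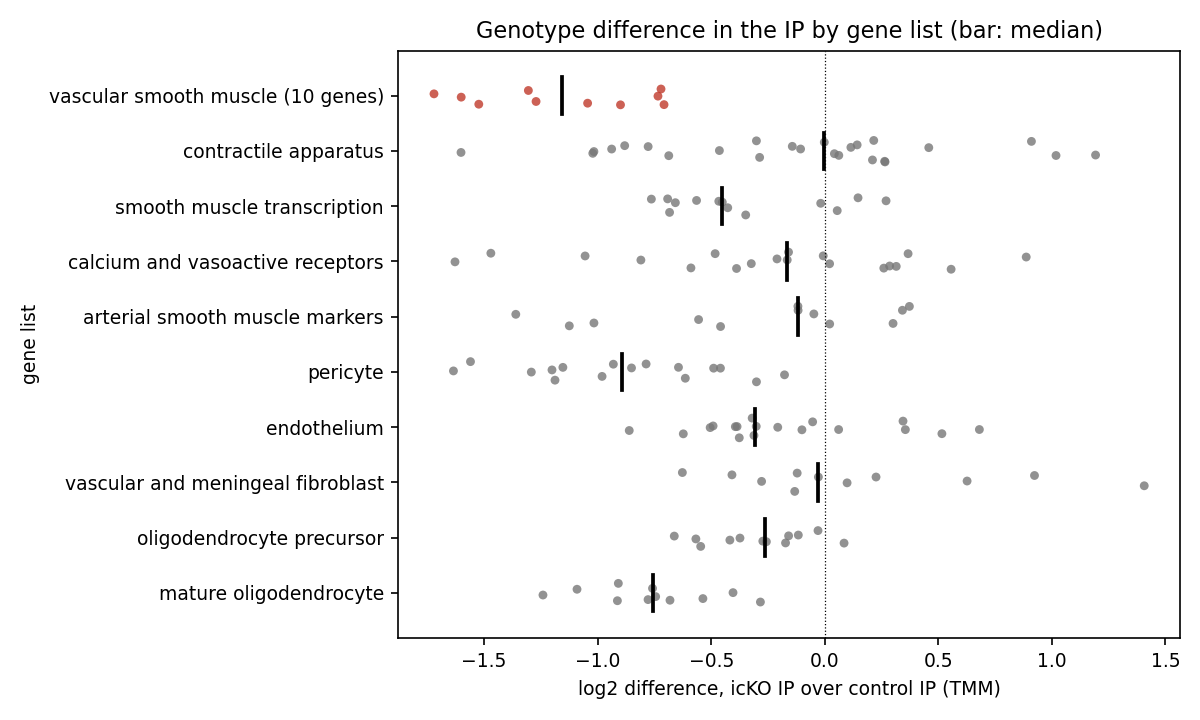
Log2 difference of icKO IP over control IP (TMM) for each tested gene of 10 lists, 1 point per gene, with a bar at the list median. The medians of the vascular smooth muscle genes (-1.16), pericyte genes (-0.89) and mature oligodendrocyte genes (-0.76) lie lowest, and the contractile apparatus list spreads on both sides of 0.

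The genes whose pattern was nearest to that of the 10 were sought by the root mean square difference of centred log2 CPM from the median profile of the 10 genes over the 6 libraries, among 13981 genes. Among the nearest were Opalin (0.0886), Gja4 (0.102), Fa2h (0.123), Mal (0.128), Angptl2 (0.145), Ifitm1 (0.152) and G0s2 (0.17). Among the members, Acta2 (0.0906) lay nearest to that profile and Cnn1 (0.81) and Tagln (0.735) farthest. Opalin was at 63.9 and 66.5 CPM in the icKO IPs against 121 and 124 CPM in the control IPs, and at 14.5 CPM in the icKO input against 14.4 CPM in the control input.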

How the data were processed

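Per the labels' protocols, libraries were made with a stranded total RNA kit (Takara SMARTer Stranded Pico). Per the submitters' processing notes, Trimmomatic 0.39 and STAR 2.7.10b were used with build mm10; the sources used here do not give the counting tool, annotation or strand setting. The deposited values are whole-number counts per gene, not normalized by the authors. Of 24421 genes, 10 without input values were dropped. Library totals of 18968806 to 23930812 set the precision: 3 counts are 0.125 to 0.158 CPM.

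Counts were fitted in edgeR 4.0.16 (R 4.3.3; quasi-likelihood F test, TMM, filterByExpr, Benjamini-Hochberg threshold 0.05 over all genes tested), after checks on simulated counts. icKO and control IPs were compared in the 4 IPs (15069 genes), IP and input in all 6 libraries with genotype as a term (15451 genes), and the genotype difference of IP over input in 4 groups (15936 genes), where each lone input is assumed to vary like the IP pairs. CPM are TMM-scaled. Exon lengths and coordinates are from GENCODE M21. DESeq2 1.42.0, other scalings and filters, left-out libraries and a replicate block were tried.

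The members and all gene lists were chosen with earlier results of these data known. Named besides the members were their paralogs and, from each list, at most the 3 largest rises and 3 largest falls among called genes averaging at least 1 CPM; genes of the endothelial, fibroblast and oligodendrocyte lists are not reported singly, apart from those nearest in pattern, and those of the striated muscle list only where they were called between the IPs or are paralogs. Some genes that this rule names are not reported here.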

Additional observations from a re-analysis of the deposited data

Results flagged for a closer look

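For 5 of the 10 genes the genotype difference of IP over input lay past edgeR's threshold, as lower in icKO mice, as it did for 13.9% of 15936 genes. The log2 value, icKO minus control, was -0.91 for Acta2, -1.29 for Tagln, -4.83 for Cnn1, -1.44 for Casq2 and -0.62 for Mylk. The members were chosen with these contrasts in view, so no p-value is given, and the values do not show that the genotypes differ. Each genotype had 1 input, whose spread is taken from the IP pairs. The Cnn1 value rests on 9 counts in the icKO input and 1 count in the control input. Scaled to the mature oligodendrocyte list, Acta2 (-0.24), Tagln (-0.61), Casq2 (-0.76) and Mylk (0.054) did not pass the threshold. Scaled to the pericyte list, Acta2 (-0.015), Tagln (-0.39), Casq2 (-0.54) and Mylk (0.28) did not pass it either. Without control IP replicate 2 neither Acta2 (-0.81) nor Cnn1 (-4.27) passed the threshold, leaving 3 of the 10 genes, and without icKO IP replicate 2 (-0.84) or with the transcript length offset (-0.85) Acta2 did not pass. Tbx2, at -0.98, did not pass with all libraries and passed without icKO IP replicate 2 (-1.03) or without control IP replicate 1 (-1.01).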

How the results depend on the processing

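Of all results recomputed, 1202 counted as unchanged, 57 as reversed, 54 as weaker, 19 as moved and 9 as stronger. Unchanged meant the same direction and side of the threshold for a gene. For a median it meant a move smaller than the spread between replicates, and for a count of genes, staying within a set fold. Leaving out 1 library at a time gave 5905 to 6242 genes past the threshold for icKO IP against control IP (7119 with all) and a median log2 of the 10 genes between -1.29 and -0.91. For IP against input it gave 10106 to 11076 genes and a median of 2.11 to 3.25, and for the genotype difference of IP over input 3515 to 3889 genes. The replicate numbers did not pair the libraries (correlation of their deviations -0.0041): with them as a replicate block 7277 genes passed, with a member median of -1.15. DESeq2 called 1829 genes in the genotype difference of IP over input, against 3763 by edgeR; the cause was not tested. Scaled to library totals, 32.6% of calls between the IPs were higher, against 46.7% with TMM, and the member median was -1.24 between the IPs and 2.61 for IP against input. Keeping only genes with at least 5 CPM in 2 libraries, which drops Cnn1 and Lmod1, gave -1.05 and 3.03; DESeq2 gave 2.63 for IP against input. A transcript length offset, chosen after seeing the data, gave -1.10 and 2.82, and turned Mef2c to -0.050 between the IPs.

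Scaling to a list shifts every gene by construction. Scaled to the mature oligodendrocyte list, 12805 genes passed between the IPs and 10243 in the genotype difference, and the member medians were -0.47 between the IPs and -0.081 for IP against input. Scaled to the pericyte list, 13543 and 12005 genes passed, and the medians were -0.33 and -0.57. Directions that turned between the IPs under the oligodendrocyte scaling were Foxc1 (0.0023), Pde5a (0.10), Wtip (0.13), Tagln2 (0.075) and Tbx3 (0.12). Under the pericyte scaling they were Myh11 (0.11), Des (0.12), Mylk (0.095), Notch3 (0.066), Foxf2 (0.14), Foxc1 (0.15), Ednra (0.020), Pde5a (0.24), Wtip (0.27), Tagln2 (0.22) and Tbx3 (0.26). For IP against input under the oligodendrocyte scaling they were Tagln (-1.48), Cnn1 (-1.06), Casq2 (-0.30), Mylk (-0.56), Lmod1 (-1.11), Smtn (-0.78), Tbx3 (-0.25), Kcnmb1 (-0.28), Ednra (-0.36), Ednrb (-0.66), Itga8 (-1.24) and Myh9 (-0.10). Under the pericyte scaling they were Acta2 (-0.35), Tagln (-1.97), Myh11 (-0.054), Cnn1 (-1.53), Casq2 (-0.80), Mylk (-1.05), Lmod1 (-1.60), Myl9 (-0.023), Cald1 (-0.35), Smtn (-1.27), Tbx3 (-0.74), Kcnmb1 (-0.77), Ednra (-0.86), Ednrb (-1.15), Gja4 (-0.23), Itga8 (-1.74), Tagln2 (-0.36) and Myh9 (-0.60). Without the control input, Cnn1 was at -0.20 for IP against input, and without the icKO input at 4.63. In the genotype difference of IP over input, the oligodendrocyte scaling turned Myh11 (0.58), Mylk (0.054) and Lmod1 (0.042), and the pericyte scaling Myh11 (0.81), Des (0.090), Mylk (0.28) and Lmod1 (0.27).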
